A study of Rattus norvegicus with 17 samples.

Results

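The response of cultured fetal rat gubernaculum to the lower of the tested doses of insulin-like 3 (Insl3), 10 nM, is described here against untreated cultures. Of the 17 arrays of the series, 9 enter this comparison. They are the 3 arrays of 10 nM cultures that the submitters used in their statistics (replicates 1 to 3) and the 6 control arrays. All 31042 probe sets other than the manufacturer's controls were considered, and 18938 of them passed the filter on low values and were tested. A lower value was called a fall of a gene only where other probe sets of the same gene moved the same way.

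The gubernaculum is the fetal ligament that tethers the testis near the inguinal abdominal wall, and in males its bulb swells and draws the testis down. Insl3 is a peptide hormone of the relaxin family made by fetal Leydig cells. It acts through Rxfp2, a G protein-coupled receptor that can raise cyclic AMP, and loss of the hormone or of its receptor leaves the testes undescended. The bulb is a mesenchymal core with a rim of developing muscle, so a whole-bulb RNA sample mixes several cell types.

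Gubernacula were taken at gestational day 17 from male fetuses of Long Evans rats, and 2 bulbs made up each biological replicate. All cultures had 24 h in medium without hormone first. Control cultures then had a further 24 h without hormone, and treated cultures had the same 24 h with Insl3 at 10 nM. The 6 cultures at 100 nM, handled likewise, served here to estimate the spread and for values set side by side. RNA was taken from the whole cultured tissue, and 150 ng of it was labelled as biotin cRNA for 1 Affymetrix array per replicate. The bulbs pooled in a replicate are not told apart, and the labels do not tie replicates to litters.

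The RNA integrity number was 10 for every control and for 10 nM replicate 3, and 10 nM replicates 1 and 2 have none in the labels. Labelled cRNA yields were 50.3 to 102.69 µg in controls and 64.16, 62.45 and 48.6 µg in 10 nM replicates 1 to 3. Replicates 4 and 5 at 10 nM, with 25.66 and 33.68 µg, were set aside by the submitters and appear here as values only. The log2 difference between the 3′ and 5′ control probe sets of Gapdh and beta-actin, a sign of transcript integrity, was 0.47 ± 0.15 (SD, n = 6) in controls and 0.54 ± 0.04 (n = 3) at 10 nM ( 2-sided exact permutation p = 0.536, smallest possible 0.0119). The 9 arrays correlated with each other at r = 0.978 to 0.996 across tested probe sets, and the number of arrays limits the precision.

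The tested mesenchymal markers stood well above the filter value. Of 13 markers listed for gubernaculum and mesenchyme 10 were tested, and Tcf21 was below the filter value of 2.285 in all 9 arrays. The mean of the log2 values of the tested 10 was 12.69 to 12.93 log2 units in controls and 12.77, 12.82 and 12.74 at 10 nM, beside 12.17 and 12.35 in the set-aside arrays. Col1a1, which encodes a chain of collagen I, stood at 14.90 in controls and 14.94 at 10 nM. Rxfp2 was not analysed here. Skeletal muscle markers were present as well, with a mean of 10.66 to 10.90 in controls and 10.67 to 10.76 at 10 nM.

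After 24 h at 10 nM, the genes that rose furthest were those of a neuropeptide precursor, a purine-degrading enzyme, a secreted antagonist of bone morphogenetic proteins (BMPs), a cyclic nucleotide phosphodiesterase and a Wnt ligand. Of 32 genes of cholesterol and fatty acid synthesis 17 rose by smaller amounts. Falls with agreeing probe sets were led by Pnma8b, Dpysl3 and Rcor1, of which the Dpysl3 call was lost without any single 10 nM array. Of the 18938 probe sets, 2004 (10.6%) passed limma's test at a Benjamini-Hochberg adjusted p of 0.05, 925 higher (4.88%) and 1079 lower (5.70%). Among those, 184 were at least 2-fold higher and 530 at least 2-fold lower. Without 10 nM replicate 1, 2 or 3 the higher calls numbered 499, 500 and 406 and the lower calls 757, 883 and 614.

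Counted as genes, each represented by its probe set with the highest mean (the standing probe set), 591 of 10665 were higher (5.54%) and 334 lower (3.13%). In 530 of the 591 and 313 of the 334, all 3 arrays at 10 nM lay beyond all 6 controls. Such separation, called or not, was found above the controls in 1091 genes (10.2% of those tested) and below them in 498 (4.67%). The rule on agreement could be applied to the 2876 genes with several tested probe sets, and 58 of these (2.02%) were lower with agreement. Agreement meant that all other probe sets were below 0 and at least 1 had an unadjusted p under 0.05. Of the other genes called lower, 119 had probe sets that disagreed and 157 had no other tested probe set. Without 10 nM replicate 1, 2 or 3, genes higher numbered 320, 297 and 247, and agreeing falls 34, 41 and 23.

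Pnoc, the precursor of the neuropeptide nociceptin, had the largest rise of any gene meeting the rule for separated rises. Its probe set read 6.61 to 9.84 log2 units in the 6 controls, with a median of 7.17, and 13.32, 13.48 and 13.05 at 10 nM. The controls differed widely among themselves, yet the highest of them lay more than 3 log2 units below the lowest treated array. The change was 5.59 ± 0.53 log2 units (SE; 48.1-fold; limma adjusted p = 4.39e-05). Cpe and Pam encode enzymes that process such precursors. Cpe, carboxypeptidase E, which trims peptide hormone intermediates, read 10.97 to 11.40 in controls and 12.96, 12.93 and 12.91 at 10 nM, a 3.25-fold rise. The set-aside 10 nM arrays read 10.95 and 11.40, and with them in the group the change was 1.00 and the call was lost (adjusted p = 0.0582). Pam, the peptide-amidating monooxygenase, rose 1.42-fold (adjusted p = 0.0167, lost without any single 10 nM array, at up to 0.0839). Of 10 tested genes of neuropeptides and their processing these 3 were higher and none was lower, with a median change of 0.63 against 0.06 over all tested genes.

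Gda, which encodes guanine deaminase, was close to background in untreated tissue. Its standing probe set read 2.63 to 3.00 in controls (median 2.72) and 7.38, 7.89 and 7.49 at 10 nM. All treated arrays stood far above a tight control group, and the change was 4.84 ± 0.21 log2 units (28.6-fold; adjusted p = 4.17e-08). The other Gda probe set rose by 3.82 ± 0.18. Gda was the single called gene among 20 tested genes of purine metabolism, whose median change was 0.05, beside 5.54% called higher over all tested genes.

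The natriuretic peptide list had 3 tested genes, of which 1, Nppc, was called (median 0.31). Nppc, which encodes the C-type natriuretic peptide precursor and signals through cyclic GMP, read 3.61 to 3.77 in controls and 6.68, 6.53 and 5.83 at 10 nM. Treated and control arrays did not overlap, and the change was 2.68 ± 0.25 log2 units (6.39-fold; adjusted p = 3.96e-05). Il1rl1, a receptor of the interleukin-1 receptor family, read 4.07 to 5.23 in controls and 7.71, 7.15 and 6.63 at 10 nM (5.09-fold).

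Among the 15 largest rises, 3 more had a single tested probe set each. Pcp4, a regulator of calmodulin, read 3.57 to 6.27 in controls and 8.74, 8.25 and 8.63 at 10 nM (8.44-fold; adjusted p = 0.0034). Abca8a, a membrane transporter of the ABC family, read 4.24 to 6.81 in controls and 7.88, 7.78 and 8.01 (6.31-fold; adjusted p = 0.00612). Both set-aside arrays of Abca8a, at 5.91 and 6.57, and replicate 4 of Pcp4, at 5.90, lay within the control range. Adh1c, an alcohol dehydrogenase, read 2.35 to 3.85 in controls and 4.78, 6.18 and 5.78 at 10 nM. Its adjusted p of 0.0498 was lost when 1 array was left out in 12 of 15 fits.

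**Figure D1:**
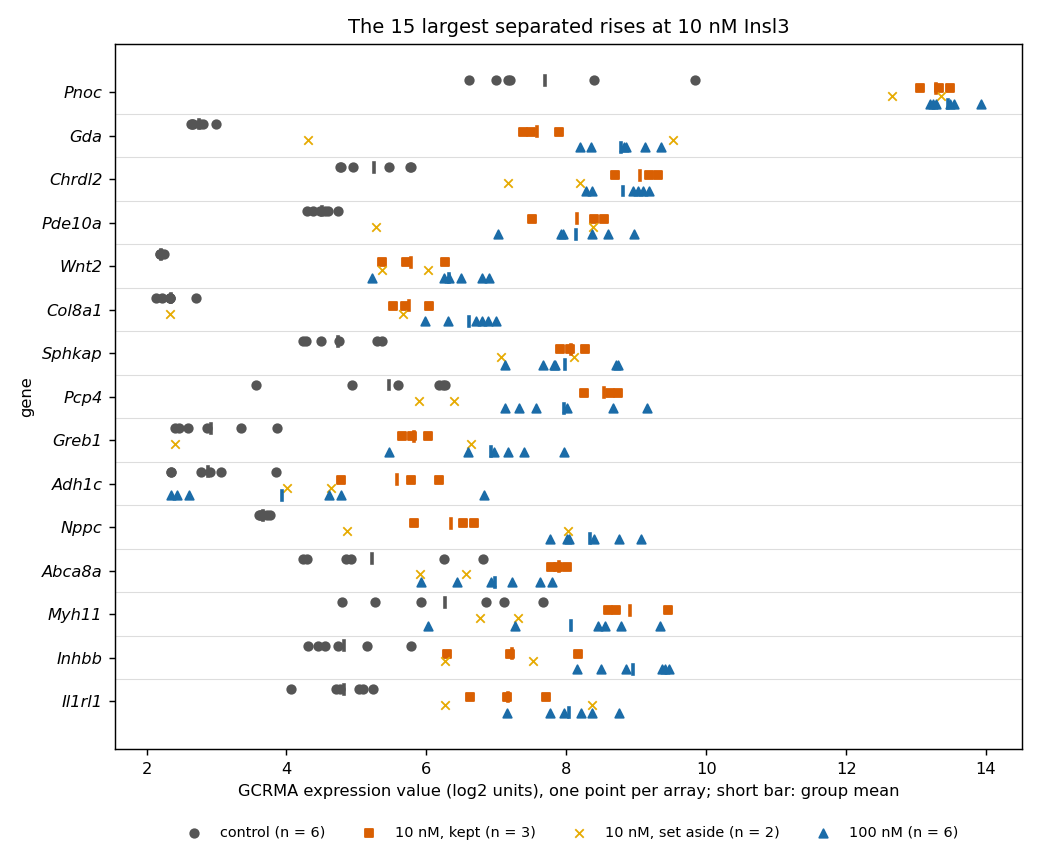
Expression of the 15 genes with the largest separated rises at 10 nM, in log2 units on the horizontal axis, with 1 point per array and a short bar at each group mean (no bar for the set-aside arrays). Every array used at 10 nM lies to the right of every control for each gene, and the set-aside 10 nM arrays vary in position, with Gda at 4.31 and 9.52.

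Some genes that act in cyclic AMP signalling were called higher, among them phosphodiesterases, which degrade the messenger, and subunits and an anchor of protein kinase A. Pde10a, a phosphodiesterase of cyclic AMP and cyclic GMP, read 4.30 to 4.74 in controls and 8.40, 7.51 and 8.54 at 10 nM, a 12.5-fold rise (3.65 ± 0.33; adjusted p = 3.53e-05). Its other probe set rose by 3.69 ± 0.42. Pde8a, a phosphodiesterase specific for cyclic AMP, rose 3.27-fold (adjusted p = 0.0129, and 0.0905 without 10 nM replicate 3). Sphkap, which anchors protein kinase A, read 4.23 to 5.37 in controls and 8.26, 7.91 and 8.05 at 10 nM (10.1-fold).

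Regulatory subunits of protein kinase A followed. Prkar2b read 8.69 to 9.13 in controls and 10.17, 9.96 and 10.22 at 10 nM, a 2.17-fold rise (adjusted p = 3.96e-05), and Prkar1a 1.37-fold, with both of its other probe sets also above 0. Adcy6, an adenylyl cyclase, was 1.48-fold higher at the edge of the threshold (adjusted p = 0.0498), and its call was lost when 1 array was left out in 12 of the 15 fits. With the set-aside arrays its change was 0.30 (limma adjusted p = 0.318). Of 20 tested subunits and anchors 4 were higher and none lower (median 0.15). Among 25 genes chosen as responsive to cyclic AMP, 5 were higher and none lower (median 0.27). The count fell to 3 without control replicate 2 or 4 or 10 nM replicate 1 or 2, and to 2 without 10 nM replicate 3.

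The other members of that list called were Per1, a clock gene, at 1.75-fold, Crem, a cyclic AMP response modulator, at 1.74-fold, and Cebpb, a transcription factor. Crem read 9.42 to 10.17 in controls and 10.64, 10.81 and 10.59 at 10 nM, so the groups did not overlap, and all 4 of its other probe sets were above 0. The adjusted p of its standing probe set was 0.0491, lost when 1 array was left out in 11 of 15 fits (highest adjusted p 0.172). Other Crem probe sets, with changes of 1.18, 1.30 and 0.84, were themselves called (limma adjusted p = 0.0045, 0.01 and 0.0106). For Per1 the call was lost in 5 such fits (highest 0.158). Several early genes of the list did not pass the test at 10 nM: Nr4a1, an orphan nuclear receptor, had a change of 0.46 (adjusted p = 0.119), and Fos of -0.94 (adjusted p = 0.539).

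Promoter windows of Pde10a and Crem are shown because both genes rose with more than 1 probe set and both windows hold the core of the cyclic AMP response element. The windows run from 250 bases before to 50 bases after a start of the gene in RefSeq annotation of rat assembly GRCr8, Pde10a at chr1:54765619-54765918 on the minus strand and Crem at chr17:58933816-58934115 on the plus strand. RefSeq lists 2 starts for Pde10a and 3 for Crem, and the first listed was used, which need not be the start active in this tissue. Capitals mark TGACG on either strand, the core contained in the full element TGACGTCA.
Pde10a: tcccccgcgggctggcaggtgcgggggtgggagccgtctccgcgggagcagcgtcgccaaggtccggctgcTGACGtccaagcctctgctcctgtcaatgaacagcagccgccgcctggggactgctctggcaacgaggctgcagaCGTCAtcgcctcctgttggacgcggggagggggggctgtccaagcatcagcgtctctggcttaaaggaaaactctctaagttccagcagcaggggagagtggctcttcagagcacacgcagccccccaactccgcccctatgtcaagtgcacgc
Crem: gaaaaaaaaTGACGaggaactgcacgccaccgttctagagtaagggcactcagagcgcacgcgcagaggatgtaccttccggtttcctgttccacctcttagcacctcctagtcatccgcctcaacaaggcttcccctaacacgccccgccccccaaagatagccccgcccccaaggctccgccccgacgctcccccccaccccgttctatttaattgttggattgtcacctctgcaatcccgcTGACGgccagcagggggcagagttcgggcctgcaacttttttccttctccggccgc

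In Pde10a the core began 179 bases before the start on the gene's strand and 104 bases before it on the opposite strand, and in Crem it began 241 and 6 bases before the start. TGACG was found in 14 of 20 windows of the cyclic AMP list (70%), against 32.6% of 8899 windows of tested genes and 22% of all 27457. Among 488 windows of genes called higher the share was 32.4%, close to that of all tested genes. It was found in 2 of the 10 windows available for the 15 largest rises. The full element TGACGTCA was in 2.87% of windows of genes called higher and 3.16% of those of tested genes. These are matches of letters and were not tested as binding sites.

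Wnt ligands rose while a Wnt co-receptor stood lower on its only probe set. Wnt2, a secreted ligand, was below the filter value of 2.285 in all 6 controls and read 6.26, 5.71 and 5.36 at 10 nM. The mean of these 3 log2 values was 11.3-fold above the filter value, so the rise was at least that large (adjusted p = 1.08e-05). Its other probe set rose by 2.04 ± 0.22. Wnt9a read 6.53 to 7.01 in controls and 8.18, 8.48 and 8.33 at 10 nM (2.83-fold), and Wnt4 read 10.96 to 11.53 in controls and 12.84, 12.78 and 12.59 (2.81-fold). In both genes the groups were well apart.

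Feedback inhibitors and nuclear factors of the pathway made up most of the other calls. Nkd1 and Nkd2, inhibitors of Dishevelled, were higher by 0.60 and 1.11 log2 units, the transcription factor genes Tcf7 and Lef1 by 0.74 and 0.65, and the receptor gene Fzd1 by 0.55. The other Lef1 probe set lay below 0, at -0.18. Lrp6, a co-receptor for Wnt ligands, read 7.85 to 8.69 in controls and 6.68, 6.67 and 5.98 at 10 nM on a single probe set (change -1.86 ± 0.33), and Axin2, a feedback target, had a change of -0.81, also on a single probe set. In total 9 of 34 tested Wnt genes were higher (7 to 9 when 1 array was left out), 2 were lower without a second probe set to check them, and the median was 0.23.

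In the BMP, TGF-beta and activin pathways the 2 largest changes were rises of secreted proteins. Chrdl2, a chordin-like BMP antagonist, read 4.77 to 5.78 in controls and 9.31, 8.69 and 9.18 at 10 nM, a 14.0-fold rise (3.81 ± 0.28; adjusted p = 5.62e-06). Inhbb, the beta B subunit shared by activin and inhibin, read 4.31 to 5.78 in controls and 8.17, 7.19 and 6.29 at 10 nM (5.24-fold). The treated arrays of Inhbb spread over nearly 2 log2 units, with replicate 3 closest to the controls.

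Other genes of the BMP branch were called in both directions. Bmp2, a ligand, and Smad5, a transducer, were higher by 0.98 and 0.42 on their standing probe sets. Another probe set of each lay below 0, at -0.30 and -0.89. Id2, a transcriptional target of BMP signalling, and Smad1, a transducer, fell with agreeing probe sets, with changes of -0.96 and -0.26. Bmpr2 and Bmpr1a, BMP receptors, had changes of -1.14 and -0.85 on single probe sets, and Gdf10, a ligand of the family, of -0.98. The Bmpr2 call was lost without 10 nM replicate 3 (adjusted p = 0.0566). Of 42 tested genes 6 were higher and 5 lower, 2 of the latter with agreement, with a median of 0.04. The 6 became 3 without 10 nM replicate 2 or 3.

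Other receptors of growth factors were higher. Gfra3, a co-receptor for a ligand of the GDNF family, read 9.10 to 9.89 in controls and 11.20, 10.87 and 11.05 at 10 nM (2.92-fold; adjusted p = 0.000114). Ngfr, the low-affinity neurotrophin receptor, rose 2.39-fold. Among fibroblast growth factor receptors, Fgfr2 rose from 7.29 ± 0.26 to 8.66 ± 0.12, and Fgfr1 and Fgfr3 were 1.47-fold and 1.66-fold higher. The Fgfr1 and Fgfr3 calls were each lost without any single 10 nM array, at adjusted p up to 0.11 and 0.142. Of 19 tested genes of fibroblast growth factor and Hedgehog signalling 4 were higher, the fourth being Gli2, and Fgfr4 had -0.46 on a single probe set (median 0.06). Of 16 tested genes of neurotrophic factors 2 were higher and 1, Il6st, was lower on probe sets that disagreed (median -0.04). Foxl2, a forkhead transcription factor known from the ovary and eyelid, read 3.84 to 4.25 in controls and 6.22, 5.29 and 5.32 at 10 nM (3.11-fold).

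Over all tested genes 5.54% were higher and 3.13% lower. Foxl2 was the single gene called higher of 30 tested transcription factor genes listed for limb and urogenital development, and 3 were lower (median -0.01). Among the latter, Hoxc9 and Hoxc8, homeobox genes of body position, had changes of -0.57 and -0.80 on single probe sets. Hoxc9 was tight, with 8.83 to 9.08 in controls and 8.32, 8.51 and 8.29 at 10 nM, and Hoxc8 lost its call without 10 nM replicate 3 (adjusted p = 0.052).

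Greb1, an oestrogen-responsive gene, read 2.40 to 3.86 in controls and 6.02, 5.65 and 5.80 at 10 nM (7.47-fold; adjusted p = 0.000986). For Greb1 set-aside replicate 4 read 2.40, as low as the lowest control, and replicate 5 read 6.64. S100g, a calcium-binding protein gene, was uneven, with 6.83, 5.20 and 2.42 at 10 nM against 2.12 to 2.72 in controls. Replicate 3 lay within the control range, and the call (adjusted p = 0.0387) did not hold in 8 of the 15 fits that left 1 array out, at 0.227 without 10 nM replicate 1. With Per1 these were the 3 called of 14 tested steroid receptors and targets (median 0.16).

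Matrix and adhesion genes changed selectively. Col8a1, a chain of the short-chain collagen VIII, was below the filter value in 2 controls, read 2.14 to 2.71 in all 6, and 6.04, 5.52 and 5.69 at 10 nM (10.6-fold, compressed by the background). For Col8a1 set-aside replicate 4 read 2.33, within the control range, and replicate 5 read 5.66. Col8a2, its partner chain, rose 2.38-fold (adjusted p = 0.0142, and 0.0964 without 10 nM replicate 2). Itgb3, the integrin beta 3 chain, read 5.96 to 6.72 in controls and 8.31, 8.17 and 7.95 at 10 nM (3.37-fold; adjusted p = 0.000112). Its partner Itgav rose 1.26-fold and the beta 1 chain Itgb1 1.43-fold, on tight groups. For Itgb1 the set-aside arrays read 12.31 and 12.17, below all controls (12.52 to 12.74), and with them the change was 0.16 and the call was lost (adjusted p = 0.58). These were the 3 called of 15 tested integrins (median 0.19).

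Collagens and structural matrix genes were higher in 6 and lower in 1 of 40 (median 0.25). Eln, which encodes elastin, read 8.48 to 8.98 in controls and 9.30, 9.36 and 9.60 at 10 nM, and Col15a1, a basement membrane collagen chain, rose 1.63-fold. Both lost their calls without 10 nM replicate 3 (adjusted p = 0.0516 and 0.0741). The 6 became 3 without 10 nM replicate 2 or 3. Matrix proteases, their inhibitors and crosslinking enzymes were higher in 6 and lower in 3 of 28 (median 0.33), with 10 higher without control replicate 6. Loxl2, a lysyl oxidase that crosslinks collagen, read 9.43 to 9.73 in controls and 8.34, 8.34 and 7.81 at 10 nM, but its probe sets disagreed. Adamts4, a protease of proteoglycans, was 1.53-fold higher (adjusted p = 0.0351, up to 0.172 without 1 array). Timp3, a matrix-bound metalloprotease inhibitor, fell 1.70-fold from 12.80 ± 0.18 to 12.04 ± 0.20, with all 3 of its other probe sets below 0 (adjusted p = 0.0118, and 0.0836 without 10 nM replicate 3). Mmp11, a metalloprotease, was 1.76-fold higher, but the set-aside arrays, at 9.34 and 9.38, lay below all controls, and with them the change was 0.36 (adjusted p = 0.354). Of 22 genes of hyaluronan and proteoglycans 3 were higher and 1 lower (median 0.19). Has2, a hyaluronan synthase, read 8.77 to 9.25 in controls and 9.40, 9.69 and 9.63 at 10 nM (adjusted p = 0.0216, and 0.101 without 10 nM replicate 2). Sdc1 and Sdc2, cell surface proteoglycans, rose by 0.43 and 0.41, and Dcn, which encodes decorin, had -0.24. These 3 calls were lost without 10 nM replicate 1 (adjusted p = 0.112, 0.153 and 0.125). The large fibrillar collagen genes of the mesenchymal markers did not pass the test, with values of 0.04 for Col1a1, -0.12 for Col1a2 and -0.01 for Col3a1.

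Genes of cholesterol and fatty acid synthesis lay higher by modest amounts. Of 32 tested genes 17 were higher and none lower, and all 32 lay above 0 on the deposited scale, the smallest being Elovl6 at 0.02. The median change was 0.49, beside a median of 0.06 and 63.3% above 0 over all tested genes. These genes also moved together without hormone, with 28 of the 32 above the control mean in control 2 and 1 in control 4. The 32 changes are therefore not independent of each other. The list was chosen with earlier results of these data known, and its count is a description.

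The called members span the pathway from acetyl units to sterols, its regulators and fatty acid desaturation. Srebf1 and Srebf2 encode the transcription factors that switch these genes on, and Insig1 the membrane protein that retains them. Srebf1 read 9.07 to 9.76 in controls and 10.51, 10.30 and 10.39 at 10 nM, with no overlap (1.96-fold; adjusted p = 0.00101), and its other probe set also rose. Srebf2 changed by 0.49 and Insig1 by 0.68. Scd, the delta-9 fatty acid desaturase, had the largest change, from 8.45 ± 0.48 to 9.45 ± 0.23, but leaving out 1 array ended its call in 5 of 15 fits (highest adjusted p 0.151).

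Along the sterol branch, Fdps, farnesyl diphosphate synthase, rose by 0.51, Sqle, squalene epoxidase, by 0.74, and Lss, lanosterol synthase, by 0.72. Further down, Tm7sf2, a sterol reductase, read 8.23 to 8.86 in controls and 9.48, 9.02 and 9.27 at 10 nM (1.73-fold). Msmo1 rose by 0.59, Hsd17b7 by 0.75, Sc5d by 0.58 and Dhcr7, the last reductase of the pathway, by 0.70. Tm7sf2 and Hsd17b7 lost their calls without 10 nM replicate 1 (adjusted p = 0.0632 and 0.056), and Hsd17b7 also without replicate 3 (0.074). Acly and Acss2, which make cytosolic acetyl-CoA, and Acaca, which commits it to fatty acids, rose by 0.37, 0.60 and 0.47. Fasn, the fatty acid synthase, had a value of 0.47 that did not pass the test.

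Averaged over the 32 genes, the level stood 0.33 to 0.62 log2 units above the control mean in the 3 arrays at 10 nM, and between -0.18 and 0.20 in single controls. Controls 1, 2 and 6 stood at 0, 0.20 and 0.17, and controls 3, 4 and 5 at -0.10, -0.18 and -0.08. The set-aside arrays stood 0.29 and 0.34 above the control mean. The number of genes called higher depended on single arrays, with 4 without 10 nM replicate 1, 5 without replicate 3 and 17 without replicate 2. Within replicates 1, 2 and 6, with 2 arrays at 10 nM against 3 controls, Srebf1, Scd, Tm7sf2 and Hsd17b7 all lost their calls.

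**Figure D2:**
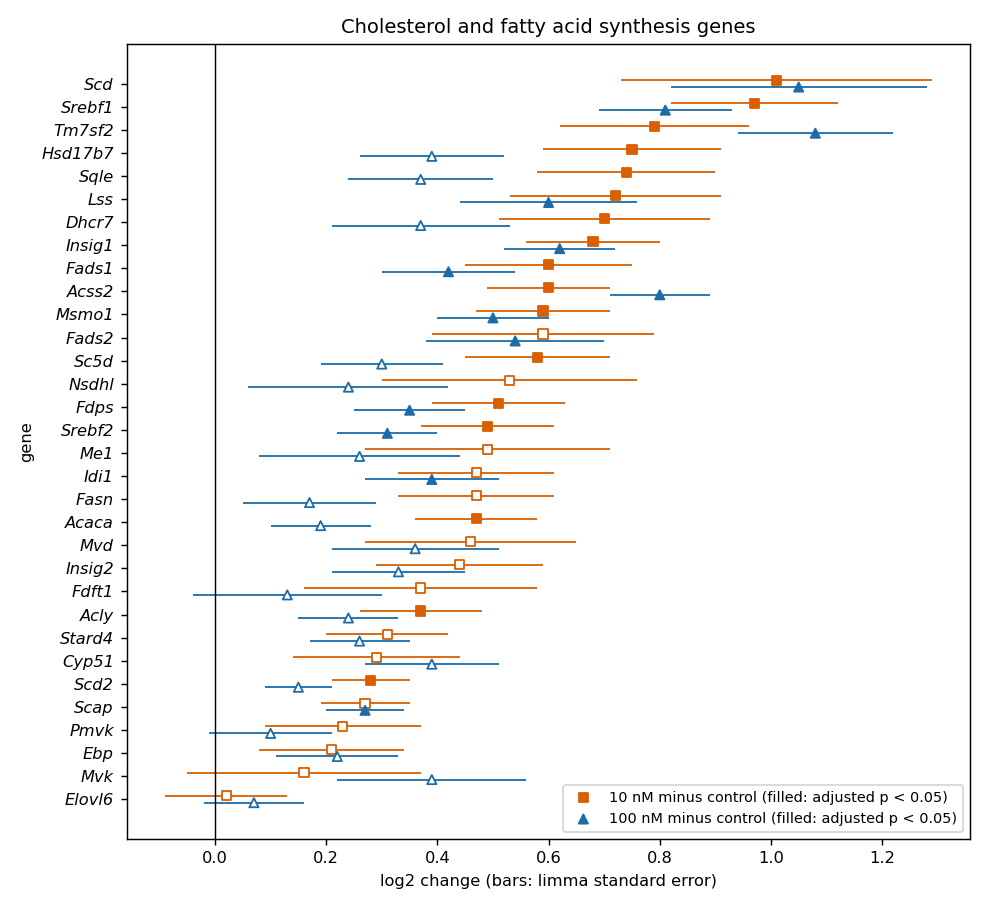
Log2 changes of the 32 tested genes of cholesterol and fatty acid synthesis at 10 nM (squares) and 100 nM (triangles) minus the same 6 controls, with limma standard errors as bars and filled symbols for an adjusted p under 0.05. All squares lie above 0, and 17 are filled.

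Promoter windows of 4 called members are printed because these genes moved together and share a short element, the CCAAT box, which is bound by NF-Y, a known partner of the SREBP factors at sterol genes. The windows are again from RefSeq on GRCr8, all on the minus strand, with Srebf1 at chr10:45529115-45529414 (the first of 2 listed starts), Insig1 at chr4:8057720-8058019, Fdps at chr2:176804767-176805066 and Tm7sf2 at chr1:212789492-212789791. Capitals mark CCAAT or its reverse complement ATTGG.
Srebf1: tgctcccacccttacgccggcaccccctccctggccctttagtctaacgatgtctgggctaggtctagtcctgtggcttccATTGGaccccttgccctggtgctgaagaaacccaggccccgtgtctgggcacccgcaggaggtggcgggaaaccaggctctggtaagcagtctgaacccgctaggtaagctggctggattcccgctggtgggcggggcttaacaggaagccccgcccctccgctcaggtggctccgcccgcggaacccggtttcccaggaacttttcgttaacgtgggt
Insig1: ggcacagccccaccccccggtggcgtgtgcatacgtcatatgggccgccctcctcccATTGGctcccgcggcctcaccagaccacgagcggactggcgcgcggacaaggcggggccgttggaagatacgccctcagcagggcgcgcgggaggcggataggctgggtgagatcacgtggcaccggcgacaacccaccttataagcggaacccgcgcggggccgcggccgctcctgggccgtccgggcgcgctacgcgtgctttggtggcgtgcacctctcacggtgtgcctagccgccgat
Fdps: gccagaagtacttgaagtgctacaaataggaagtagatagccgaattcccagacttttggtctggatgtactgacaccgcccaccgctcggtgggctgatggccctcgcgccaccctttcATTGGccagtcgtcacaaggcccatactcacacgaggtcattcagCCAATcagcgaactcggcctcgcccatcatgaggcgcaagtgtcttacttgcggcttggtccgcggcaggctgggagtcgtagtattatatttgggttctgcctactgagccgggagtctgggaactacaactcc
Tm7sf2: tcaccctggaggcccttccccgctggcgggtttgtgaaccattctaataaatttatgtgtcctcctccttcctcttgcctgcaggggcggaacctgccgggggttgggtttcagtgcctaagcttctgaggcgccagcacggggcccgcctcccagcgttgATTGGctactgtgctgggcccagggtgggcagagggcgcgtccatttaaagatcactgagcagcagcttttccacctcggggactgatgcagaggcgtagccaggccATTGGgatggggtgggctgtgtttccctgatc

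CCAAT was found on either strand in 19 of the 25 windows available for the 32 genes (76%) and in 13 of 15 for called genes (86.7%), against 37.9% of windows of tested genes and 37.7% of all windows. Among genes called higher as a whole it was found in 34.4%. The share was 51.1% in 47 windows of agreeing falls and 50% in the 10 windows available for the 15 largest rises. In Fdps the matches began 130 and 85 bases before the start, and in Insig1 193 bases before it. A classical sterol element, TCACNCCAC on either strand, was in none of the 25 windows and in 1.1% of those of tested genes, so these letters are not in these windows. In all, 8 motifs were searched with the expression values known, and no test was run on them.

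Falls with agreeing probe sets were led by Pnma8b, a gene of the paraneoplastic antigen family. Its standing probe set read 11.30 to 11.95 in controls and 9.77, 9.47 and 9.32 at 10 nM, a 4.41-fold fall (-2.14 ± 0.23; adjusted p = 0.000131), and its other probe set fell by 1.99 ± 0.26. All treated arrays of the standing probe set lay below all controls. In whole tissue, fewer cells of a type and less RNA per cell cannot be told apart for this or any other change.

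Rcor1, Dnmt3a and Ankrd11 were among the 15 largest falls. Rcor1, a corepressor that joins histone demethylase and deacetylase complexes, read 10.47 to 10.98 in controls and 9.05, 8.95 and 8.73 at 10 nM (3.30-fold lower; adjusted p = 0.00138), and its other probe set fell by 1.42. Dnmt3a, a de novo DNA methyltransferase, read 11.08 to 11.44 in controls and 9.79, 9.56 and 9.22 at 10 nM (3.22-fold lower; adjusted p = 0.00179), although its other probe set had only -0.43 (unadjusted p = 0.0493). Ankrd11, a chromatin regulator, fell 3.05-fold, and its 3 probe sets gave nearly the same change, -1.61, -1.63 and -1.51.

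Prrx1, a homeobox factor of limb and body-wall mesenchyme, read 9.17 to 10.08 in controls and 8.59, 8.88 and 8.40 at 10 nM. Both of its probe sets had a change of -1.17 (adjusted p = 0.00874 and 0.0239), but the call was lost without 10 nM replicate 3 (adjusted p = 0.06). Prrx1 was the single called gene among the 10 mesenchymal markers. Creb5, a factor of the CREB family, fell 2.04-fold, and its 4 other probe sets ran from -0.15 to -2.10 (adjusted p = 0.00991, and 0.074 without 10 nM replicate 3).

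Genes of signalling, RNA processing and the cytoskeleton completed the 15. Dpysl3, which acts in neurite outgrowth, read 9.14 to 10.30 in controls and 7.74, 7.46 and 7.77 at 10 nM. Its adjusted p of 0.021 was lost without any single 10 nM array (0.0664 to 0.0861), and its other probe set, near background, had -0.20. Xiap, an inhibitor of caspases, fell 2.65-fold, Ifnar1, a chain of the type I interferon receptor, 2.10-fold, and Nsrp1, a splicing regulator, 2.15-fold. The other probe sets of Ifnar1 ran from -0.08 to -0.51. The standing probe set of Nsrp1 was tight, with 8.95 to 9.29 in controls and 8.06, 8.02 and 8.03 at 10 nM. Its other probe sets had -1.23 and -0.02. Zfp91, a zinc finger ubiquitin ligase, fell 2.13-fold on its standing probe set. All 6 of its other probe sets were below 0, but they ran from -1.21 to -0.21 and -0.03, the last 2 not called. Klhl42, LOC100912031, Dnajb14 and Tmod2 fell, with changes of -1.49, -1.33, -1.27 and -1.18, of which Tmod2 was lost without 10 nM replicate 2 or 3 (adjusted p = 0.0572 and 0.0982).

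**Figure D3:**
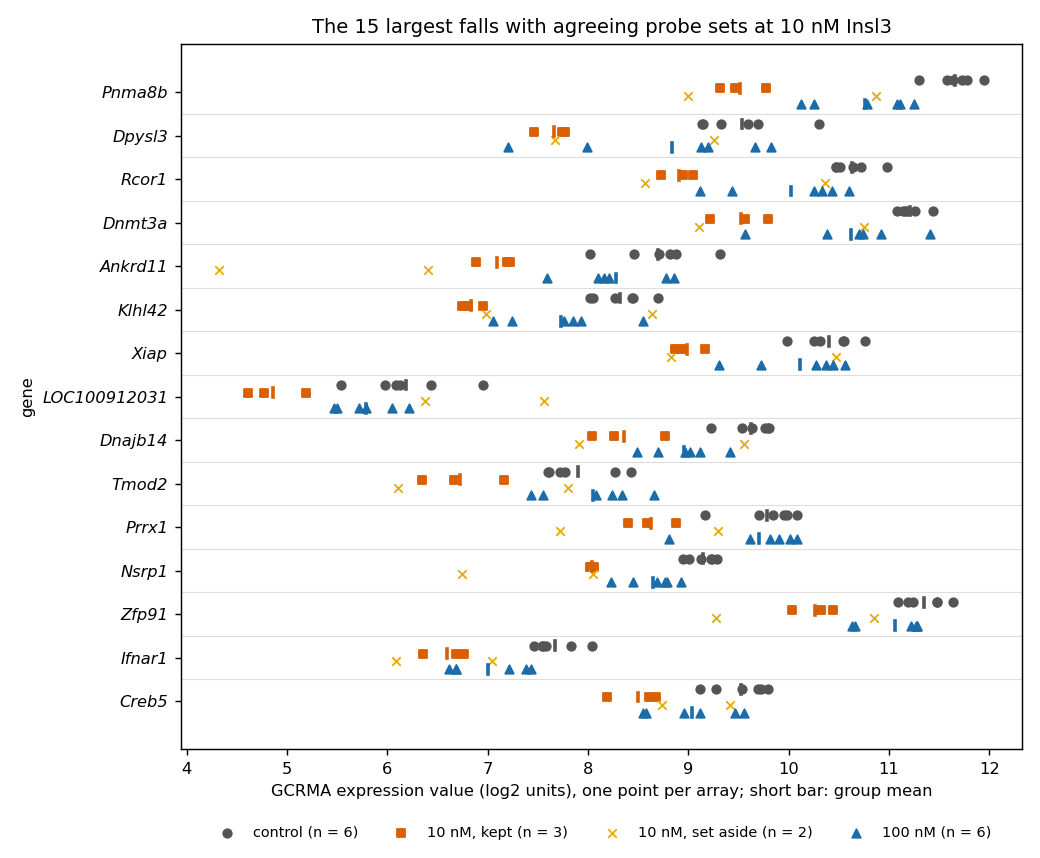
Expression of the 15 genes with the largest falls that other probe sets of the gene share, in log2 units, with 1 point per array and a short bar at each group mean. The arrays used at 10 nM lie to the left of all controls, the 100 nM arrays reach into the control range for most genes, and the set-aside arrays are split.

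The largest negative changes were on probe sets without such agreement and are given as values only. Sema3d, a secreted guidance molecule, read 8.07 to 8.98 in controls and 5.72, 5.23 and 5.78 at 10 nM (-2.84 ± 0.31; adjusted p = 0.000124). Sema3d, Ppp1r9a (-2.73), Tmem26 (-2.60), Pi4k2a (-2.57), Bod1l1 (-2.52), Csrnp3 (-2.27) and Cldn11 (-2.18) each had a single tested probe set. Cldn11 lost its call without 10 nM replicate 3 (adjusted p = 0.087).

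Mgll, the lipase that hydrolyses monoacylglycerols, is a case of disagreement. Its standing probe set had a change of -2.38 ± 0.34 (adjusted p = 0.00069), while its 2 other probe sets had -0.10 and 0.25 (adjusted p = 0.597 and 0.595). Over all 177 genes called lower that had other tested probe sets, 210 of 309 other probe sets (68%) were below 0, 84 were themselves called lower and 6 were called higher, with a median change of -0.20 against -0.74 for the standing ones. For the 184 genes called higher, 155 of 243 others (63.8%) were above 0 and 37 were called higher, with medians of 0.09 and 0.46. The share of genes meeting the rule of agreement was 32.8% for those lower, 26.6% for those higher and 12.6% for genes not called.

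Probe sets of 23 genes were called in opposite directions. For Hdac1, a histone deacetylase, one probe set changed by 0.54 ± 0.13 (adjusted p = 0.0126) and the other by -0.66 ± 0.15 (adjusted p = 0.0102). Smad5, a BMP transducer, had 0.42 on its standing probe set and -0.89 on another, and Add3, a membrane skeleton protein, 0.42 and -0.81. These 3 genes were picked as examples after their values were seen. No position of the probe sets within the transcripts was analysed here, so which transcript forms they read was not tested.

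**Figure D4:**
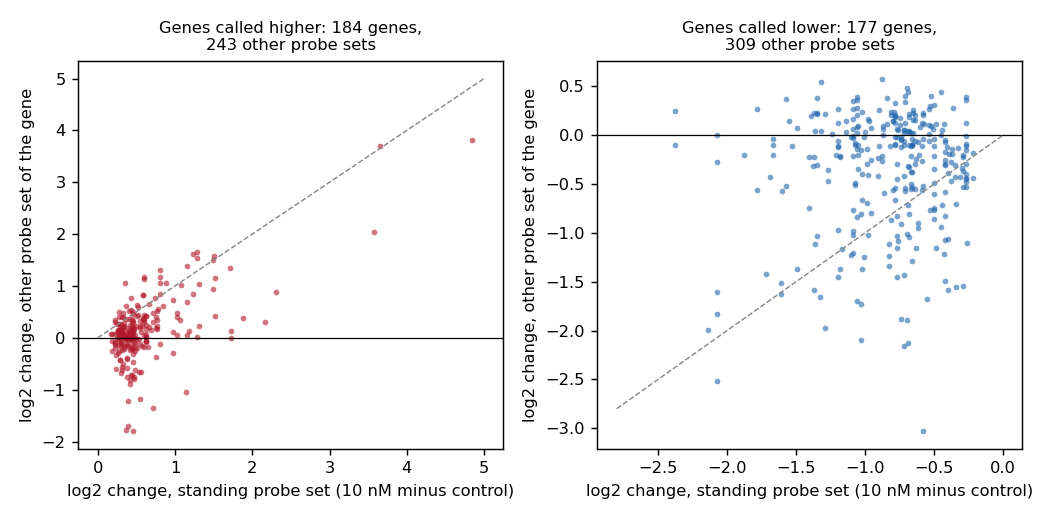
Log2 change (10 nM minus control) of each gene's other tested probe sets against that of its standing probe set, for 184 genes called higher (left) and 177 called lower (right), with a dashed line at equality. Many other probe sets sit near 0 in both panels, and those of lower genes reach from above 0 to below -2.

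Genes called lower with agreement spanned longer stretches of the genome than tested genes at large. The median gene span in RefSeq annotation of GRCr8 was 77 kb for the 58 agreeing falls, 64.5 kb for those whose probe sets disagreed, 49.3 kb for those with a single probe set, 27.5 kb for genes higher and 24.3 kb for all tested. Genes with agreement have several probe sets by definition, and the 49 higher genes that met the rule had a median of 47.8 kb. Whether span moves with the change was not tested.

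Guidance genes moved in both directions. Of 45 tested, 5 were higher and 5 lower, with a median of 0.00. Sema3g was 2.34-fold higher, but both set-aside arrays lay below all controls, and with them the change was 0.31 (adjusted p = 0.681). Nrp2, a neuropilin receptor of class 3 semaphorins, and Sema3a had changes of -1.36 and -1.88 on single probe sets, and Plxna2, a plexin, fell by 0.63 with agreement. The higher count became 2 without any single 10 nM array and 3 without control replicate 4.

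Splicing and nuclear RNA genes had 5 called lower and none higher of 34, with a median of 0.00. Of the 5, Thoc2, a subunit of an mRNA export complex, met the rule of agreement (-0.74). The other probe sets of Thoc2 had -1.88, -0.91 and -0.04. Rbm39 and Srrm2 had -0.77 and -1.02 on their standing probe sets, but other probe sets of these genes lay above 0. In the cell cycle list 2 of 45 were lower, beside 3.13% of all tested genes. These were, on single probe sets, Ccnd2, a D-type cyclin, at -0.91 and Tyms, thymidylate synthase, at -0.83. Both lost the call without 1 or more of the 10 nM arrays (adjusted p up to 0.0566 and 0.107).

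Several pathways gave no call by limma at 10 nM. Over all tested genes 5.54% were higher and 3.13% lower, so lists of 14 genes would hold few calls at that share. No member passed among 14 Notch, 14 insulin-like growth factor, 14 retinoid, 35 oxidative phosphorylation and 19 ribosomal protein genes, with medians between -0.01 and 0.08. The numbers with an unadjusted p under 0.05 were 1, 6, 2, 2 and 0 in that order. Neither of the 2 tested genes of Insl3 and relaxin signalling passed (median -0.02), and 0 had an unadjusted p under 0.05. In hypoxia and glycolysis 3 of 26 were higher (median 0.16), led by Egln3, an oxygen-sensing prolyl hydroxylase, which read 3.83 to 4.92 in controls and 5.81, 5.68 and 5.70 at 10 nM (3.01-fold). Slc2a1, a glucose transporter, was 1.34-fold higher and Adm, adrenomedullin, 1.98-fold. The first call was lost without 10 nM replicate 1 (adjusted p = 0.102), and Adm lost its call at up to 0.218. Among 30 genes of endoplasmic reticulum folding 4 were higher and 1 lower (median 0.17), and the 4 became 0 without 10 nM replicate 1 or 2. Sel1l and Syvn1, partners in the degradation of misfolded proteins, were higher by 0.48 and 0.34, and Canx, the chaperone calnexin, by 0.29. The other Canx probe sets had -0.43 and 0.24. Atf6, a sensor of unfolded proteins, had -0.45 on a single probe set.

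Calls among markers of other cell types are set beside the shares over all tested genes, 5.54% higher and 3.13% lower. Endothelial markers were higher in 3 of 14: Cldn5, a tight junction claudin, read 9.09 to 10.31 in controls and 11.87, 11.11 and 10.37 at 10 nM (3.04-fold), Kdr, the main VEGF receptor, rose 1.72-fold and Ramp2, a receptor partner of adrenomedullin, 1.39-fold. Ramp2 lost its call without 10 nM replicate 1 or 3 (adjusted p = 0.07 and 0.0839). The mean endothelial level was 5.61 to 5.95 in controls and 5.93, 6.15 and 5.85 at 10 nM, and Flt1, Tek, Vwf and Plvap were below the filter value in all 9 arrays. Smooth muscle markers were mixed, with 1 of 15 higher and 2 lower (median 0.10). Myh11, smooth muscle myosin heavy chain, read 4.79 to 7.66 in controls and 8.71, 9.45 and 8.59 at 10 nM (6.29-fold; adjusted p = 0.0279, lost in 6 of the 15 fits that left 1 array out), whereas Tagln, an actin-binding protein, had -0.43 and Mylk, the myosin light chain kinase, fell by 0.35. Tagln also lost its call in 6 such fits, and Mylk without 10 nM replicate 1 or 3 (adjusted p = 0.0902 and 0.0972).

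Of 33 skeletal muscle markers 2 were lower and none was higher (median -0.01), and 3 had an unadjusted p under 0.05. Mef2c, a transcription factor of muscle, had -0.96 on probe sets that disagreed, and Musk, a receptor kinase of the muscle synapse, -0.51 on a single one (adjusted p = 0.0121, and 0.0679 without 10 nM replicate 2). Of 8 adipocyte markers 1 was higher (median 0.23), Cfd, complement factor D, which read 5.42 to 6.97 in controls and 7.10, 7.94 and 7.77 at 10 nM. Among 2 tested markers of chondrocytes and osteoblasts, Comp, a matrix protein of cartilage, was higher by 0.82 and Sox6 had -1.27 on probe sets that disagreed. Comp lost its call without 10 nM replicate 1 or 3 (adjusted p = 0.0658 and 0.0623). Of 5 Schwann cell and glial markers Ngfr and Pmp22 were higher (median 0.34), the latter lost without 10 nM replicate 3 (adjusted p = 0.0603). The other Pmp22 probe set lay below 0, at -0.21.

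Blood cell transcripts varied between arrays more than between these groups. The averaged erythroid level was 8.19 to 10.60 in controls and 9.42, 8.30 and 9.81 at 10 nM, with 1 of 16 markers called (Gypc, lost without 1 array in 12 of 15 fits). The granulocyte and mast cell level was 5.14 to 7.39 and 6.21, 5.74 and 7.45, with none of 9 called. With the erythroid average as a term in the fit, 556 genes were higher and 59 fell with agreement. No call by limma was made among 18 macrophage and leukocyte, 9 neuronal and 8 mesothelial and epithelial markers. At an unadjusted p under 0.05 the counts were 2, 0 and 0, and 0 for the granulocyte and mast cell markers. The part of blood and other cells in the other results was not tested.

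The set-aside arrays, which took no part in the calls, did not behave alike. Averaged over the 15 largest rises, the arrays used at 10 nM stood 3.16 to 3.47 log2 units above the control mean, set-aside replicate 5 at 3.23 and replicate 4 at 1.44. Averaged over the 15 falls they stood at -1.27 to -1.56, replicate 4 at -1.88 and replicate 5 at -0.35. In these averages over 15 genes replicate 4 had the smaller rises and the deeper falls, and replicate 5 the reverse. Both set-aside arrays lay above all controls for 10 of the 15 rises and below all controls for 7 of the 15 falls. Over all 530 separated rises the median was 0.25 in replicate 4, 0.20 in replicate 5 and 0.52 in the arrays used. Both set-aside arrays lay above the controls in 214 of these, and among the 58 agreeing falls both lay below in 39. With these arrays in the 10 nM group, 112 genes fell with agreement, and 21 of the 107 named calls were lost. Among the losses were LOC100912031 at -0.48 (adjusted p = 0.497), Myh11 at 1.90 (0.0777), Kdr at 0.48 (0.144), Comp at 0.43 (0.232), Col15a1 at 0.22 (0.591) and Eln at 0.42 (0.139).

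**Figure D5:**
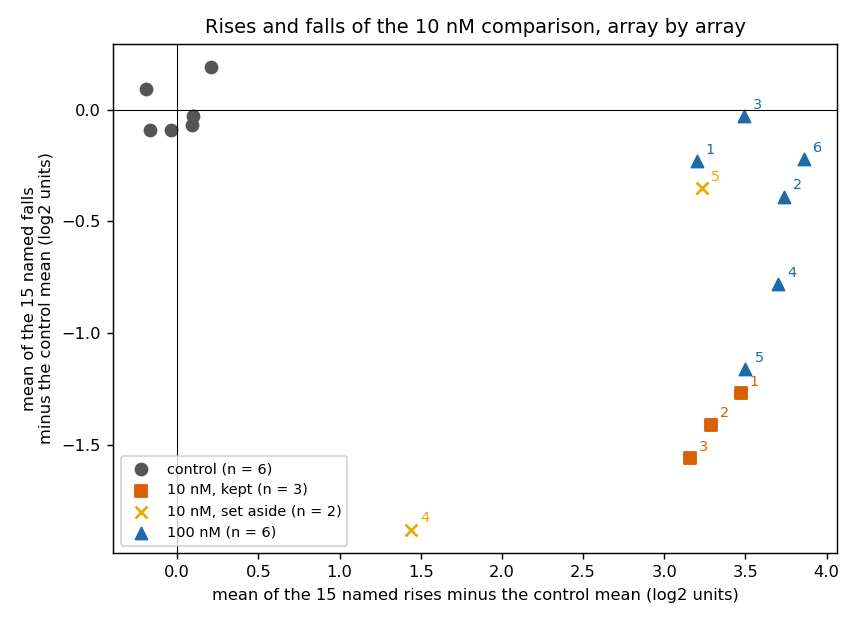
Mean of the 15 named rises (horizontal) and of the 15 named falls (vertical) in each array, minus the mean of the controls, in log2 units, with replicate numbers beside the treated arrays. The 3 arrays used at 10 nM lie together at 3.16 to 3.47 and -1.27 to -1.56, while the set-aside arrays and the 100 nM arrays spread along the vertical axis.

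The values at 100 nM are set beside those at 10 nM, with the same 6 controls in both comparisons and the genes chosen on the 10 nM arrays. At 100 nM, 869 genes were higher than in controls (8.15%) and 424 lower (3.98%). Averaged over the 15 rises, the 100 nM arrays stood 3.20 to 3.86 above the control mean, and over the 15 falls at -0.03 to -1.16. Among the rises, Gda changed by 4.84 at 10 nM and 6.03 at 100 nM, Nppc by 2.68 and 4.67, and Foxl2 by 1.64 and 3.04. Chrdl2 changed by 3.81 and 3.56, Pde10a by 3.65 and 3.63 and Sphkap by 3.33 and 3.25. Among the falls, the 10 nM and 100 nM values were -2.14 and -0.90 for Pnma8b, -1.41 and -0.29 for Xiap, and -1.17 and -0.08 for Prrx1.

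In the direct contrast of 100 nM with 10 nM, 83 of 10665 genes differed (0.778%). In 75 of the 83 the difference ran against the direction of the 10 nM change, whether or not that change was called. The 3 arrays at 10 nM enter both contrasts, which favours opposite signs, so the 75 is a description. Among the 107 named genes 18 differed. Nppc was higher at 100 nM by 1.99 ± 0.25 log2 units (adjusted p = 0.00518), Foxl2 by 1.40 ± 0.24 (0.0195) and Gda by 1.19 ± 0.21 (0.0229), and Pnma8b lay nearer to the control by 1.24 ± 0.23 (0.0246). For Pde10a the difference was -0.02 ± 0.33 and for Pnoc 0.16 ± 0.53 (adjusted p = 1 and 0.954), which does not show that the doses act alike. All 18 calls were lost without 10 nM replicate 3, with adjusted p from 0.0518 to 0.289, and 16 were lost without 100 nM replicate 2.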

How the data were processed

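Expression was measured on 17 arrays, of which 15 were fitted (6 control, 3 at 10 nM and 6 at 100 nM). The deposited table holds GCRMA values on a log2 scale, 1 for each probe set and array, which the authors made per the submitters' processing notes. GCRMA corrects background by probe sequence, normalizes arrays to each other and summarises probes, which compresses changes near background. The log base is not stated in the labels and base 2 was taken from the range of values, 2.11 to 16.9. Neither the GCRMA version nor the set of arrays that was normalized jointly is given in the sources used here. No raw signals or read depth enter.

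A probe set was tested if at least 3 of the 15 arrays exceeded 2.285, which is the 40th percentile over these arrays. The probe table used here gave 1 gene for 20832 probe sets, of which 20764 matched the GRCr8 gene table. The 3 groups were fitted together with limma 3.58.1 in R 4.3.3 (lmFit and eBayes, 2-sided, Benjamini-Hochberg over 18938 probe sets), sharing 1 spread, and checked on simulated data. Errors are SEs for changes and SDs for means. Among tested probe sets 4507 had an unadjusted p under 0.05, and 229 of the higher and 212 of the lower calls were on probe sets the table did not list.

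Named genes are the 15 largest separated rises, the 15 largest separated falls with agreement, the 8 largest lower values without it, and up to 4 called members of each of 39 gene lists. Other called list members, and the uncalled ones given, were named after their values were seen, and their calls were not refitted without single arrays. The members and lists were chosen with earlier results of these data known. Per the labels, replicates are biological. Alternatives covered the arrays fitted, filter, normalization, spread, replicate block, a division of replicates 1, 2 and 6 from 3, 4 and 5 known from earlier results and named by no label, erythroid level, agreement rule and single arrays left out. Promoter windows are from RefSeq (GRCr8), with 1 window per symbol, the first listed where a symbol had several starts (3251 of 27457).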

Additional observations from a re-analysis of the deposited data

Results flagged for a closer look

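Chance sets about 1 in 20 control groups apart by the measure used, and 9 of 108 groups looked at had an array apart. In each of the following genes 1 of the 6 controls, not the same one throughout, stood apart. It read high for Col8a1 (2.71, next 2.33), Hsd17b7 (9.67, next 9.21), Sdc2 (10.09, next 9.82) and Foxl2 (4.25, next 3.95). It read low for Ppp1r9a (3.33, next 5.31), Fgfr3 (4.48, next 5.27), Nrp2 (9.71, next 10.29), Adm (2.86, next 3.05) and Itgav (9.12, next 9.29).

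The arrays at 100 nM differed from those at 10 nM, which also chose the genes, for 18 named genes. Genes further from the control at 100 nM were Nppc (1.99 log2 units), Gda (1.19), Foxl2 (1.4) and S100g (3.27). Genes low at 10 nM and nearer to the control at 100 nM were Pi4k2a (2.23), Mgll (1.85), Sema3a (1.61), Lrp6 (1.51), Tmod2 (1.33), Pnma8b (1.24), Xiap (1.12), Loxl2 (1.08), Ccnd2 (0.94), Zfp91 (0.8), Sox6 (0.72) and Nsrp1 (0.61). Genes high at 10 nM and nearer to the control at 100 nM were Itgav (-0.36) and Itgb1 (-0.34). All 18 calls were lost without 10 nM replicate 3.

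The set-aside arrays at 10 nM, which the comparison did not use, both lay above all controls for 10 of the 15 named rises and below all controls for 7 of the 15 named falls.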

How the results depend on the processing

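Same-numbered control and 10 nM cultures did not deviate together (r = -0.04, 0.06 and 0.13 across probe sets), so the numbers were not taken as pairs, and no 10 nM culture correlated best with the control of its own number. With the replicate block, 658 probe sets were higher and 1050 lower, 433 genes were higher and 51 fell with agreement, and 9 sterol and fatty acid genes were called, with 89 of 107 named calls kept.

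Leaving out each array in turn gave 406 to 1224 probe sets higher, 614 to 1271 lower, 247 to 823 genes higher and 23 to 82 agreeing falls, and 0.02 to 0.10 for the 3′ to 5′ difference. The lowest counts came without 10 nM replicate 3 and the highest without control replicate 6. Within replicates 1, 2 and 6, with 2 arrays at 10 nM against 3 controls, the counts were 125, 434, 70 and 18, with fewer arrays. With replicate 3 as the only 10 nM array, chosen after seeing the data and assumed to vary like the other groups, they were 161, 337, 83 and 11. Agreeing falls numbered 112 with the set-aside arrays included, and 98 where agreement asked only for the same sign. The cause of the rise to 112 was not tested. The Itgb1 difference between 100 nM and 10 nM turned from -0.34 to 0.03 with the set-aside arrays.

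Of 107 named called genes, 25 passed in every alternative and 62 in every fit without 1 array, and none changed sign at 10 nM. Among the 15 rises 8 passed in every alternative, and among the 15 falls 5. Adh1c, at an adjusted p of 0.0498, was lost in 19 of 25. Quantile normalization left the median change of all probe sets at 0.033. With 3 arrays at 10 nM, small changes and low signals are the least certain.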
